A study of Sus scrofa with 14 samples.

Results

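The swine leukocyte antigen (SLA) molecules, the pig's major histocompatibility complex proteins, and the genes that load them with peptide were followed in pregnant uterus. The members were 10 genes, SLA-DRA, SLA-DRB1, SLA-DQA1, SLA-DQB1, SLA-DMA, SLA-DMB, SLA-1, CD74, TAP1 and TAPBP. A probe set was taken where the platform annotation gave it 1 of these symbols and no other. By this rule 14 probe sets of 9 genes were found, among 10069 probe sets of 6765 genes with a single symbol and 23999 probe sets tested. SLA-1 had 0 probe sets of its own: 4 probe sets listed it together with other class I genes, so SLA-1 is given no value. Another 3 probe sets listed SLA-DRB1 with a second gene and were also left out.

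The sows were F2 animals of a cross between Iberian and Meishan pigs, and their uterus was taken at slaughter between days 30 and 32 of the fifth gestation. Each sow gave 1 array on the Affymetrix porcine GeneChip, a biological replicate by the labels. The 14 arrays were 5 from sows of high prolificacy and 9 from sows of low prolificacy, and the question was how uterine expression differs with prolificacy. The labels do not give the litter sizes behind the groups, the part of the uterine wall sampled or its distance from a conceptus.

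Major histocompatibility complex class I molecules show peptides made inside a cell to cytotoxic T cells and to natural killer cells. The TAP transporter, of which TAP1 is a subunit, moves those peptides into the endoplasmic reticulum, and tapasin, the product of TAPBP, holds empty class I molecules to the transporter while they are loaded. Class II molecules, made as alpha and beta chains such as SLA-DRA with SLA-DRB1 and SLA-DQA1 with SLA-DQB1, show peptides taken up from outside and are made mainly by dendritic cells, macrophages and B cells. The invariant chain CD74 blocks the class II groove until the vesicle is reached, and the DM pair, SLA-DMA and SLA-DMB, then exchanges its last fragment for a peptide. In the pregnant uterus, maternal epithelium and leukocytes lie close to fetal membranes. In the gene table of the pig, 8 of the 9 measured genes lay on the same chromosome, and CD74 lay on another.

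Values are log2 levels on the authors' RMA scale, and every difference is high minus low prolificacy on that scale. Differences were tested with limma, with p-values adjusted over all 23999 probe sets and a threshold of 0.05. In that fit 7.85% of all probe sets were called, 3.50% higher and 4.35% lower in high prolificacy. Array medians lay between 5.72 and 5.84. High 5 and low 3 correlated least with the other arrays, at a median r of 0.883 and 0.916, and correlated best with each other. Between the same groups, 8 of 16 uterine epithelium markers were higher and 14 of 15 smooth muscle markers were lower in high prolificacy. The epithelium list mean, which averages the listed genes after subtracting each gene's own 14-array mean, ran from 0.62 to 1.61 in high prolificacy and from -2.27 to 0.21 in low prolificacy. The smooth muscle list mean ran from -3.37 to -0.02 in high prolificacy and from 0.70 to 1.84 in low prolificacy. In whole tissue, fewer cells of a type and less RNA per cell cannot be told apart.

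The loading gene TAPBP rose in high prolificacy uterus, TAP1 was higher by less and did not pass the test, and none of the 7 class II genes was called. Of the 14 probe sets, 1 was called, which is 7.14% of them against 7.85% of all probe sets tested, so the share called among the members was close to the background. At an unadjusted p under 0.05 the count was 2 of 14, against 5073 of all 23999 probe sets tested. Of the 14 differences, 10 were above 0, with a median of 0.14. Over all probe sets tested 56.7% were above 0, with a median of 0.04. In 0 of the 14 probe sets were the groups apart, which was the case for 2.64% of all probe sets tested.

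**Figure D1:**
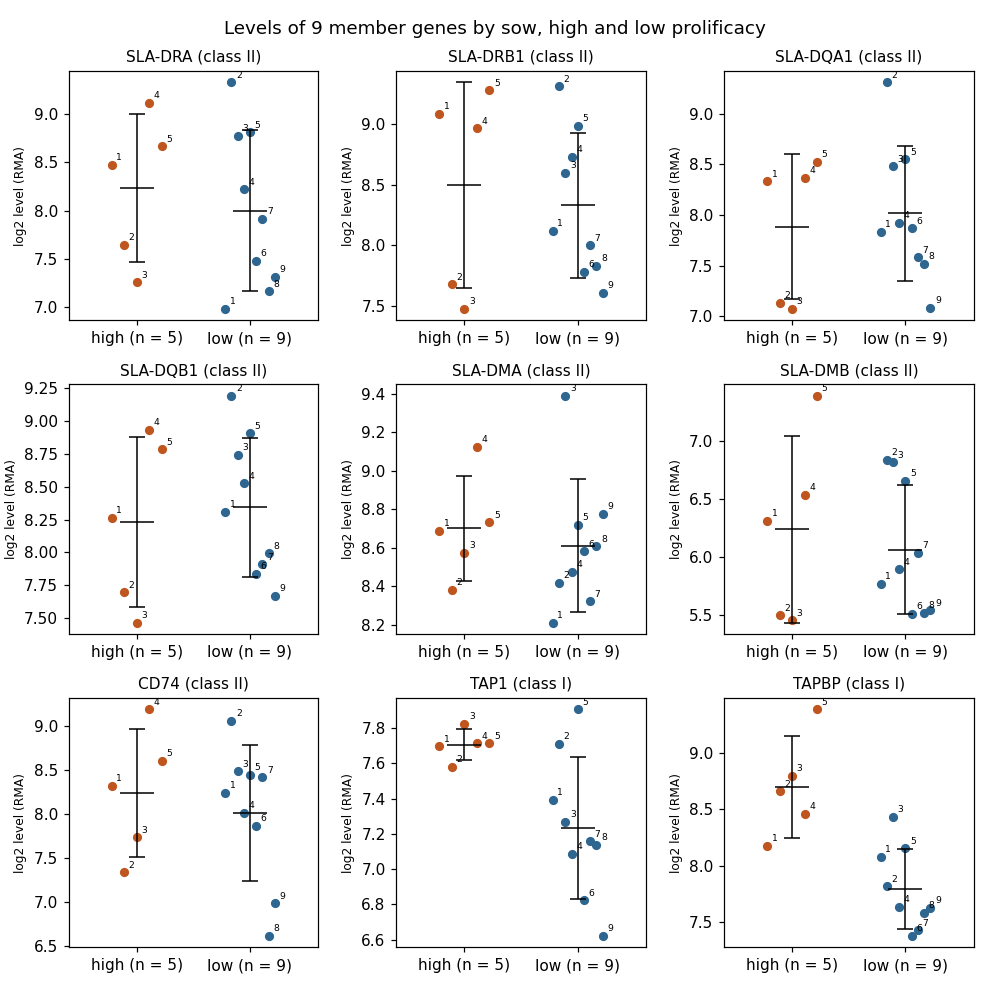
Log2 levels (vertical axes) of the brightest probe set of each of 9 genes, with a point for each sow, numbered by replicate, the mean as a bar and the SD as whiskers, for 5 high and 9 low prolificacy arrays. The class II genes spread over the same range in both groups, and 4 of the 5 TAPBP points in high prolificacy lie above all 9 in low prolificacy.

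TAPBP, tapasin, was at 8.18, 8.66, 8.80, 8.46 and 9.38 in high prolificacy replicates 1 to 5. In low prolificacy it had a lowest value of 7.38, a median of 7.64 and a highest value of 8.43. In 4 of 5 high prolificacy arrays it lay above every low prolificacy array, and 8 of 9 low prolificacy arrays lay below every high one. The exceptions were high 1, the lowest of its group, and low 3, the highest of its group. Mean TAPBP was 8.69 ± 0.45 in the 5 high prolificacy sows, against 7.79 ± 0.36 (SD) in the 9 low prolificacy sows. It rose by 0.90 ± 0.21 (SE), or 1.87-fold, with an adjusted p of 0.017 in limma. Its 95% interval ran from 0.45 to 1.35. Without high 3 the difference was 0.88 and limma's adjusted p was 0.054. With the epithelium list mean as a covariate the difference was 0.37, with the smooth muscle list mean it was 0.02, and with both it was 0.03, and none of these fits called TAPBP. Neither list mean overlapped between the groups, so these fits cannot tell list and group apart, and the part of either list in the difference was not tested. Without high 5 and low 3, the arrays that correlated least with the others, the difference was 0.81 (limma adjusted p = 0.015).

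TAP1, the transporter subunit, was nearly level in its brightest probe set across the high prolificacy sows, at 7.70, 7.58, 7.82, 7.71 and 7.71 in replicates 1 to 5. In low prolificacy the same probe set had a lowest value of 6.62, a median of 7.16 and a highest value of 7.91. All 5 high prolificacy arrays lay above the low prolificacy median, and 7 of 9 low prolificacy arrays lay below every high one. Low 5 was above all of them and low 2 stood within their range. The SD was 0.09 in high (n = 5) and 0.40 in low prolificacy (n = 9). The difference was 0.47 ± 0.18 (SE, limma adjusted p = 0.14), with a 95% interval from 0.08 to 0.86. Without low 5 it was 0.56 and passed, at a limma adjusted p of 0.046. With the epithelium list mean as a covariate it was 0.024, with the smooth muscle list mean 0.0077 and with both 0.012, and none of these fits called TAP1. The dimmer TAP1 probe sets, at 5.57 in high and 5.44 in low prolificacy and at 3.61 in high and 3.47 in low prolificacy, differed by 0.13 and 0.14 and were not called.

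**Figure D2:**
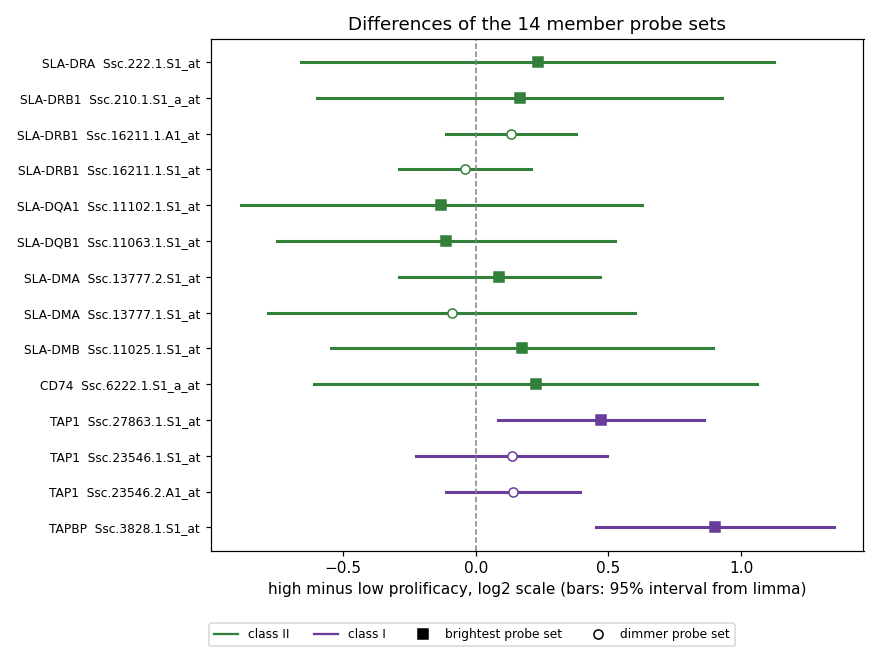
Difference of high minus low prolificacy on the log2 scale (horizontal axis) for each of the 14 probe sets, with limma's 95% interval as a bar. Squares are the brightest probe set of a gene and open circles the dimmer ones; TAPBP and the brightest TAP1 probe set have intervals above 0, and the class II intervals span 0.

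Most class II genes varied several-fold from sow to sow, and none passed the test between the groups. SLA-DRA, the DR alpha chain, was at 8.48, 7.65, 7.26, 9.12 and 8.67 in high prolificacy replicates 1 to 5. In low prolificacy its lowest value was 6.98, its median 7.91 and its highest 9.33. The groups overlapped over nearly their whole range, with high 2 and high 3 low and high 1, high 4 and high 5 high. Mean SLA-DRA was 8.23 ± 0.76 in the 5 high prolificacy sows, against 8.00 ± 0.84 (SD) in the 9 low prolificacy sows. The difference was 0.23 ± 0.42 (SE), with an adjusted p of 0.82 in limma and a 95% interval from -0.66 to 1.12.

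SLA-DRB1, the DR beta chain, was at 9.08, 7.68, 7.47, 8.96 and 9.28 in high prolificacy replicates 1 to 5. In low prolificacy its lowest value was 7.61, its median 8.12 and its highest 9.31. As for SLA-DRA, high 2 and high 3 lay far below the other high prolificacy sows. The difference was 0.17 ± 0.36 (SE, limma adjusted p = 0.86). This probe set carries the suffix that Affymetrix gave to sets matching alternative transcripts of a gene, and DRB copies can share probes. The other 2 SLA-DRB1 probe sets were dim, at 3.74 and 2.61 in high and 3.60 and 2.65 in low prolificacy, below every array median.

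The DQ chains, like the DR chains, were lowest within high prolificacy in high 2 and high 3. SLA-DQA1, the DQ alpha chain, was at 8.33, 7.13, 7.07, 8.37 and 8.53 in high prolificacy replicates 1 to 5, and in low prolificacy it had a lowest value of 7.08, a median of 7.87 and a highest value of 9.31. SLA-DQB1, the DQ beta chain, was at 8.26, 7.70, 7.47, 8.93 and 8.79 in high prolificacy replicates 1 to 5, and in low prolificacy it had a lowest value of 7.67, a median of 8.31 and a highest value of 9.19. In low prolificacy, low 2 was the highest and low 9 the lowest array in both genes. The differences were -0.13 ± 0.35 for SLA-DQA1 and -0.11 ± 0.30 for SLA-DQB1 (SE, limma adjusted p = 0.89 for each).

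CD74, the invariant chain, was at 8.33, 7.34, 7.74, 9.20 and 8.61 in high prolificacy replicates 1 to 5. In low prolificacy its lowest value was 6.61, its median 8.25 and its highest 9.07. Here the lowest arrays were low 8 and low 9, which lay below every high prolificacy array. The difference was 0.23 ± 0.39 (SE, limma adjusted p = 0.82).

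Of the DM pair, SLA-DMB was at 6.31, 5.50, 5.46, 6.54 and 7.39 in high prolificacy replicates 1 to 5. In low prolificacy its lowest value was 5.51, its median 5.90 and its highest 6.84. The difference was 0.17 ± 0.34 (SE, limma adjusted p = 0.84). The 2 SLA-DMA probe sets did not vary alike. The brighter was at 8.69, 8.38, 8.57, 9.12 and 8.73 in high prolificacy replicates 1 to 5 and ran from 8.21 to 9.39 in low prolificacy, where low 3 stood highest. The dimmer was at 6.55, 5.13, 5.64, 6.47 and 6.62 in high prolificacy replicates 1 to 5 and ran from 5.37 to 7.15 in low prolificacy. Neither was called, with differences of 0.09 and -0.09.

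Over the brightest probe sets of the 7 class II genes the differences ran from -0.13 to 0.23, with limma adjusted p between 0.82 and 0.89, and 0 of the 10 class II probe sets passed even an unadjusted p of 0.05. When 1 array was left out, the sign turned in at least 1 fit for 6 of the 7 genes, and SLA-DRA stayed between 0.01 and 0.48. Without high 4, for instance, the CD74 difference was -0.01 and the SLA-DMA difference -0.02, and without high 3 the SLA-DQA1 and SLA-DQB1 differences were 0.07 and 0.08.

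The class I loading genes were set against SLA-DRA and CD74 within each array, to see whether class I and class II changed unequally. TAPBP minus SLA-DRA was 0.46 ± 0.92 in the 5 high prolificacy sows, against -0.21 ± 0.75 (SD) in the 9 low prolificacy sows, and the groups differed by 0.67 (exact permutation test, two-sided, p = 0.16, adjusted p = 0.33 over 4 pairs). TAPBP minus CD74 differed by 0.68, TAP1 minus SLA-DRA by 0.24 and TAP1 minus CD74 by 0.25 (exact permutation adjusted p = 0.33, 0.54 and 0.54). The smallest p that the 2002 splits allow is 0.000999. The SDs of the 4 pairs within groups ran from 0.59 to 0.92, and the power to find differences of this size was not tested. An unequal change of class I and class II was not shown, although TAPBP was called and the class II genes were not.

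**Figure D3:**
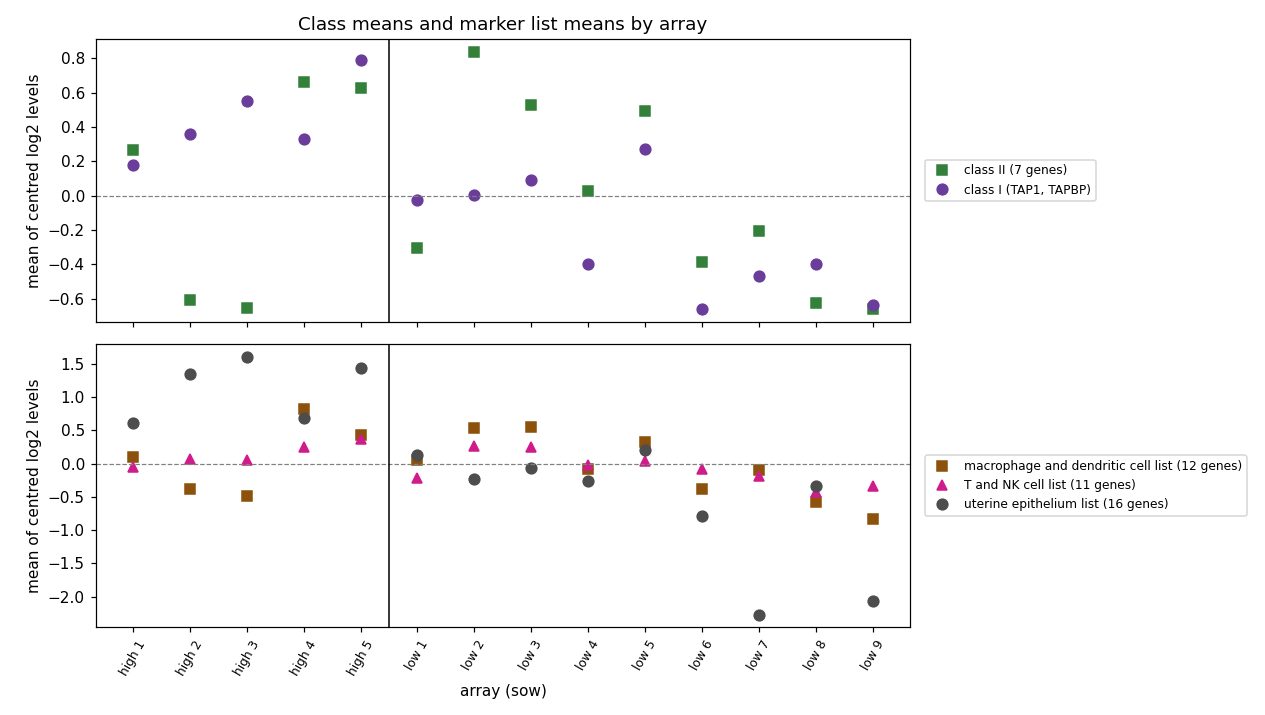
Average log2 level, after subtracting each gene's own 14-array mean, for class II and class I genes (upper plot) and for 3 lists of cell type markers (lower plot), by array, high prolificacy left of the line and low prolificacy right of it. High 2 and high 3 are low for class II (-0.61 and -0.65) and above 0 for class I (0.36 and 0.55).

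High 2 and high 3 were where the classes parted most within high prolificacy. The class II mean of 7 genes was 0.27, -0.61, -0.65, 0.66 and 0.63 in high prolificacy replicates 1 to 5, and the class I mean of TAP1 and TAPBP was 0.18, 0.36, 0.55, 0.33 and 0.79 in the same arrays. In low prolificacy the class II mean ran from -0.66 in low 9 to 0.84 in low 2, and the class I mean from -0.66 in low 6 to 0.27 in low 5. High 2 and high 3 also had the lowest means of the 12 macrophage and dendritic cell markers in their group, at -0.39 and -0.49, against 0.10, 0.83 and 0.43 in high 1, high 4 and high 5. The other leukocyte lists did not set both of these sows apart in the same way. High 2 lay above high 1 in the pan-leukocyte mean (0.29 and 0.04) and in the T and NK cell mean (0.06 and -0.04). It was the highest of all 14 arrays in the mean of 3 B and plasma cell markers (1.11). High 3 was the lowest of its group in the pan-leukocyte mean (-0.17) and in the B and plasma cell mean (-0.86). The B and plasma cell values of these 2 sows came mostly from JCHAIN, at 9.16 in high 2 and 3.56 in high 3. TNFRSF17 was at 4.00 and 3.62 and CD79B at 2.95 and 3.01 in the same 2 sows, below every array median. In the T and NK cell mean high 3 lay above high 1 (0.06 and -0.04). High 4, highest of its group in SLA-DRA, SLA-DQB1, SLA-DMA and CD74, stood far above the other sows in the 9 trophoblast and fetal membrane markers, at a list mean of 3.63. The part of these lists in the class means was not tested.

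Within low prolificacy, where 9 sows allow it, the class II genes varied together. Of the 36 pairs among the 9 genes, 19 passed an adjusted p of 0.05 for Pearson's r when every pairing of the 9 arrays was enumerated (exact permutation, two-sided), and 16 for Spearman's rho. The 15 pairs among SLA-DRA, SLA-DRB1, SLA-DQA1, SLA-DQB1, SLA-DMB and CD74 all passed for r, with r between 0.73 and 0.98. Copies of the SLA genes can share probes, which was not tested here. The highest r was that of SLA-DRB1 with SLA-DQB1 (r = 0.98, exact permutation p = 7.7e-05, adjusted p = 0.0028; rho = 0.97, adjusted p = 0.0060), and it was 0.94 without the 2 arrays farthest from the median. SLA-DRA correlated with SLA-DMB at r = 0.93 (exact permutation adjusted p = 0.013; rho = 0.82, adjusted p = 0.039) and with SLA-DRB1 at r = 0.90 (exact permutation adjusted p = 0.015; rho = 0.77, adjusted p = 0.048). Without the 2 farthest arrays of each pair, the 15 values of r ran from 0.48 to 0.95, the lowest for SLA-DQB1 with CD74.

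Low 2 was the highest low prolificacy sow in all 6 of these genes. Without it 6 of 36 pairs passed, and without low 9 the count was 11, while the other 7 fits that left out a low prolificacy array called between 15 and 21. The median r of all 21 class II pairs was 0.79 with all 9 arrays and 0.72 without low 2. SLA-DMA was the exception among the class II genes, with r between -0.07 and 0.38 against the other 6 for its brighter probe set, none of them called. Without the 2 farthest arrays of each pair these values ran from -0.56 with CD74 to 0.69 with SLA-DQA1. Its dimmer probe set, chosen after the values were seen, correlated with SLA-DRA at r = 0.91 (exact permutation p = 0.0012, adjusted p = 0.0059 over 5 dimmer probe sets; rho = 0.87, adjusted p = 0.011; r = 0.90 without the 2 farthest arrays). The brighter SLA-DMA probe set correlated with SLA-DRA at r = 0.32. Of the other dimmer probe sets, those of TAP1 had r = 0.70 and 0.69 with SLA-DRA (exact permutation adjusted p = 0.016 and 0.078). Both passed for rho (0.92 and 0.78, adjusted p = 0.0066 and 0.029). Those of SLA-DRB1 had r = 0.29 and -0.31 and were not called. Without the 2 farthest arrays these values were 0.92 and -0.32, so the first turned on those 2 arrays. Which of the 2 probe sets follows the SLA-DMA transcript was not tested.

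**Figure D4:**
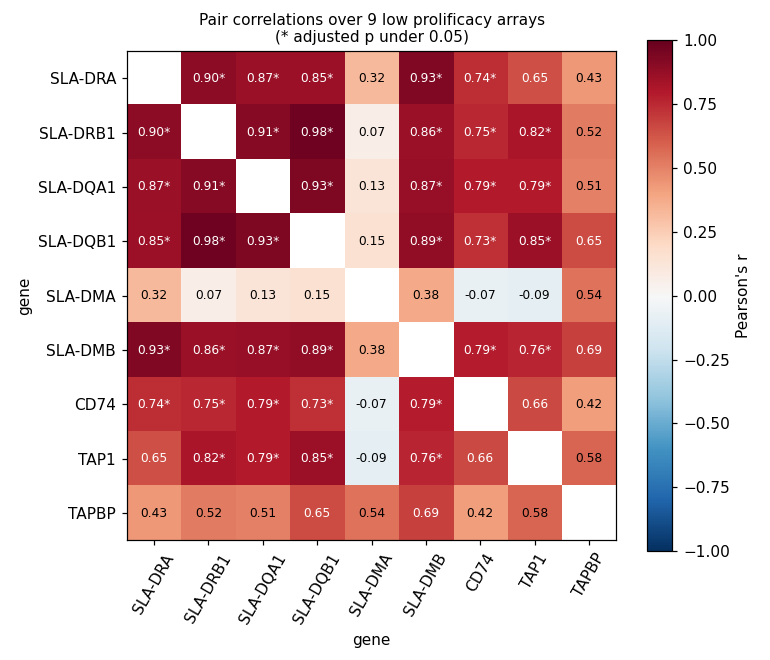
Pearson's r for each pair of 9 genes (brightest probe sets) over the 9 low prolificacy arrays, with an asterisk where the exact permutation test passed an adjusted p of 0.05. Class II genes other than SLA-DMA correlate at 0.73 to 0.98, and TAPBP with every other gene at 0.42 to 0.69.

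In its brightest probe set, TAP1 varied with part of the class II genes. TAP1 correlated with SLA-DQB1 at r = 0.85, with SLA-DRB1 at 0.82, with SLA-DQA1 at 0.79 and with SLA-DMB at 0.76 (exact permutation adjusted p = 0.015, 0.019, 0.029 and 0.040; rho between 0.68 and 0.83, with SLA-DQA1 and SLA-DMB not called for rho, and CD74 called for rho alone). Without the 2 farthest arrays these values of r were 0.75, 0.58, 0.62 and 0.85. TAPBP passed with 0 of the other 8 genes, with r between 0.42 and 0.69. At an unadjusted exact permutation p under 0.05 for r, it passed with SLA-DMB alone. Its rho with SLA-DQB1 was 0.75 (exact permutation adjusted p = 0.054). Without the 2 farthest arrays of each pair, r of TAPBP ran from 0.36 with CD74 to 0.84 with SLA-DQB1. With SLA-DRA it was then 0.80, against 0.43 with all 9 arrays, and with SLA-DQA1 0.80, against 0.51. TAP1 with TAPBP, the 2 loading genes of class I, had r = 0.58 (exact permutation adjusted p = 0.16; rho = 0.68, adjusted p = 0.079). With 5 sows, high prolificacy is too small for a correlation.

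Leukocyte marker means varied with most of these genes across the same low prolificacy sows. In 36 relations of the 9 genes with 4 marker list means, a set of tests added after the data were seen, 7 genes passed with the macrophage and dendritic cell list, 7 with the pan-leukocyte list, 6 with the T and NK cell list and 2 with the epithelium list. SLA-DQB1 correlated with the pan-leukocyte mean at r = 0.94 (exact permutation p = 0.00014, adjusted p = 0.0037; rho = 0.97, adjusted p = 0.0042; r = 0.91 without the 2 farthest arrays). SLA-DMB correlated with the macrophage and dendritic cell mean at r = 0.92 and CD74 at r = 0.89 (exact permutation adjusted p = 0.0047 each; rho = 0.85 and 0.92, adjusted p = 0.016 and 0.0094; r = 0.93 and 0.90 without the 2 farthest arrays). SLA-DRA correlated with the T and NK cell mean at r = 0.90 (exact permutation adjusted p = 0.0056; rho = 0.92, adjusted p = 0.0094; r = 0.83 without the 2 farthest arrays). The T and NK cell list was dim. All its genes but GNLY had low prolificacy means between 2.88 (KLRK1) and 5.16 (CD3D), below every array median, and no detection calls were used. TAPBP and SLA-DQB1 were the 2 that passed with the epithelium list. For TAPBP r was 0.63 (exact permutation p = 0.028, adjusted p = 0.045; rho = 0.87, adjusted p = 0.014; r = 0.82 without the 2 farthest arrays). TAPBP had r = 0.70 with the macrophage and dendritic cell mean and 0.71 with the pan-leukocyte mean (exact permutation adjusted p = 0.051 each), and both passed for rho (0.80 and 0.75, adjusted p = 0.026 and 0.038). Without the 2 farthest arrays these values of r were 0.65 and 0.64.

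No gene of the leukocyte lists was called between the groups, where 10.8% of all genes were called. Differences were above 0 in 11 of 12 macrophage and dendritic cell genes and in 11 of 11 T and NK cell genes. The count was 5 of 6 for pan-leukocyte genes and 3 of 3 for B and plasma cell genes. In that order the median differences were 0.15, 0.17, 0.16 and 0.23, against 0.07 over all genes. Over all probe sets tested, 56.7% of differences were above 0. With 1 probe set per gene fitted, 1765 of 6765 genes had an unadjusted p under 0.05. Of 12 macrophage and dendritic cell genes 0 were called by limma, with 0 at an unadjusted p under 0.05, and the list mean ran from -0.49 to 0.83 in high and from -0.83 to 0.56 in low prolificacy. Of 11 T and NK cell genes 0 were called (2 at an unadjusted p under 0.05), with list means from -0.04 to 0.37 in high and from -0.42 to 0.27 in low prolificacy. Of 6 pan-leukocyte genes 0 were called (2 at an unadjusted p under 0.05), with list means from -0.17 to 0.60 in high and from -0.79 to 0.46 in low prolificacy. The 2 were LCP1, which differed by 1.07, and LAPTM5, by 1.05 (limma adjusted p = 0.090 and 0.11). B and plasma cells were represented by 3 genes, of which 0 were called and 1 had an unadjusted p under 0.05. With the macrophage and dendritic cell mean as a covariate, TAPBP kept its call and 1 of the 14 probe sets passed.

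The genes most like SLA-DRA were sought over the 14 arrays with each group's mean removed, among 6764 genes, whose median r with SLA-DRA was 0.10. SLA-DQB1, SLA-DQA1 and SLA-DRB1 ranked 2, 3 and 4, at r = 0.89, 0.89 and 0.88, and SLA-DMB ranked 12 at 0.86. CD74 ranked 43 at 0.79, TAP1 603 at 0.53, SLA-DMA 928 at 0.46 and TAPBP 2357 at 0.24. The 6 nearest genes outside the members were CD2 (r = 0.92), a receptor of T and natural killer cells, NHP2 (0.88), a protein of small nucleolar ribonucleoproteins, C1QC (0.88), a chain of complement C1q made by macrophages, AHSP (0.88), the alpha hemoglobin stabilising protein of red cell precursors, LOC106504372 (0.87) and ALAS2 (0.87), the first enzyme of heme synthesis in red cell precursors. LOC106504372 is listed beside SLA-DRB1 on 3 shared probe sets, so its nearness can come from shared probes. CD2 was dim, at a mean of 4.78 in high and 4.52 in low prolificacy, below every array median.

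TAP1 had other neighbours. The 6 genes most like its brightest probe set, by the same measure, were PTPN18 (r = 0.87), a tyrosine phosphatase, PDLIM1 (0.86), a LIM-domain protein of the cytoskeleton, PTGES3 (0.86), a co-chaperone of HSP90, FOLR1 (0.85), a folate receptor, OAZ2 (0.84), an inhibitor of ornithine decarboxylase, and PSME2 (0.84), a subunit of the proteasome activator PA28. The median r of all genes with TAP1 was 0.05. SLA-6, a non-classical class I gene, ranked 23 at 0.77, and PSMB8, a subunit of the immunoproteasome that cuts peptides for class I, ranked 32 at 0.76. The class I list did not follow TAP1 as a whole. B2M had r = 0.75 and SLA-3 0.72, but PSME1 had 0.37 and SLA-8 0.24. PSMB10, another immunoproteasome subunit, ranked 4251 at -0.05. Of the class II list, IFI30 and CTSS had the highest r, at 0.68 and 0.63, but CIITA had 0.25, CD40 0.08 and CTSB 0.02. Of the members, SLA-DQB1 stood nearest to TAP1 at 0.63, and TAPBP had r = 0.44.

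The other genes of the class I pathway lay higher in high prolificacy without passing. Of 13 such genes on the array, 0 were called by limma and 6 had an unadjusted p under 0.05. All 13 had a difference above 0, against 56.7% of all probe sets tested, and their median was 0.46. Over the brightest probe sets of all 6765 genes the median was 0.07 and 10.8% were called. When 1 probe set per gene was fitted, 1765 of the 6765 had an unadjusted p under 0.05. The immunoproteasome subunit PSMB10 had means of 7.61 ± 0.51 in the 5 high prolificacy sows and 6.95 ± 0.24 (SD) in the 9 low prolificacy sows, and differed by 0.66 (limma adjusted p = 0.0502). PSME1, the partner of PSME2 in PA28, differed by 0.69 (limma adjusted p = 0.055), PSMB8 by 0.77 (0.076) and PSME2 by 0.46 (0.12). The classical class I gene SLA-2 was at 11.03 in high and 10.51 in low prolificacy, a difference of 0.53, SLA-3 differed by 0.25, and the non-classical SLA-6, SLA-7 and SLA-8 by 0.77, 0.46 and 0.04, none of them called. Probe sets of class I copies can share targets, which was not tested here. B2M, the light chain of every class I molecule, had 9 probe sets with differences between -0.40 and 0.48, and its brightest differed by 0.36.

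Of 11 other class II pathway genes 0 were called by limma and 2 had an unadjusted p under 0.05, against 10.8% and 1765 of 6765 over all genes. Their median difference was 0.07, as over all genes. CIITA, the coactivator that class II genes depend on, had means of 6.01 ± 0.20 in the 5 high prolificacy sows and 5.99 ± 0.19 (SD) in the 9 low prolificacy sows, and differed by 0.02. SLA-DOA, a chain of the DO molecule that restrains DM, differed by -0.10. The costimulatory ligand CD86 differed by 0.51 (limma adjusted p = 0.059), the cathepsin CTSH by 0.47 and IFI30, a thiol reductase of the loading vesicle, by 0.97 (limma adjusted p = 0.21 and 0.35).

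Interferon gamma induces class I and class II genes, and type I interferons induce class I genes. Of 11 genes of the interferon gamma axis, 2 fell and 0 rose in limma, where 10.8% of all genes were called, 361 higher and 367 lower of 6765: the kinase JAK1 by 0.49 and the kinase JAK2 by 0.98 on the log2 scale (adjusted p = 0.017 and 0.036). The interferon gamma list was not lower as a whole: 6 of its 11 genes had a difference above 0, against 56.7% of all probe sets tested. Its median was 0.25, against 0.07 over all genes. GBP1, an interferon-induced guanylate-binding protein, differed by -0.84 and IRF1, a transcription factor that interferon gamma induces, by 0.52 (limma adjusted p = 0.14 and 0.26). Of 14 type I interferon response genes, 3 rose and 0 fell, with a median difference of 0.78, against the median of 0.07 and the 10.8% called over all genes. IRF7, a transcription factor of the type I interferon response, rose by 0.69, USP18, an inhibitor of that response, by 0.99 and XAF1, a pro-apoptotic interferon-induced protein, by 0.81 (limma adjusted p = 0.010, 0.037 and 0.040).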

How the data were processed

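The deposited values were log2 levels per probe set. The submitters' processing notes name RMA as the authors' method, with settings not given in the sources used here. That method equalises intensity distributions between arrays. The number of arrays sets the precision. Of 24123 probe sets, 124 Affymetrix controls were left out. Symbols came from the platform annotation, and all 9 measured members were found by gene number in the pig gene table (assembly Sscrofa11.1). No detection calls were used.

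High minus low prolificacy was fitted with limma 3.58.1 in R 4.3.3 (lmFit, eBayes, no covariate). Exact permutation tests, tested on simulated data as was the fit, used Python 3.11.15. Where the text needs 1 probe set a gene, it is the brightest. Named genes were all members, the 6 most like SLA-DRA and the 6 most like TAP1, and the 3 with the smallest p of each of 4 pathway lists. Other genes given were chosen after their values were seen. SLA-1 had no probe set of its own, so 4 pairs of the 6 planned and 36 correlations were computed. The members and lists were chosen with earlier results of these data known. Replicate numbers were not used as pairs in the main fit. Deviations of same-numbered arrays correlated between -0.25 and 0.42 for 5 numbers, and pairing was not tested. Alternatives were the 12000 brightest probe sets, cyclic loess, median scaling, array weights, marker covariates, a replicate block, other eBayes settings and thresholds, and leaving out arrays.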

Additional observations from a re-analysis of the deposited data

Results flagged for a closer look

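A group's lowest or highest array was set against the others in 76 groups, the members and the other named genes in high and in low prolificacy, and 3 were marked, or 3.95%, where chance marks about 1 in 20. The brighter SLA-DMA probe set was at 9.39 in low 3, against 8.78 in the next array of low prolificacy. A dimmer TAP1 probe set was at 4.69 in low 8, against 5.28 in the next lowest array. JAK1 was at 10.37 in low 9, against 10.03 in the next highest array.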

How the results depend on the processing

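The count of called probe sets was 1885, with 3060 under array weights, 2925 at an adjusted p of 0.10, 877 with 1 probe set per gene, 2 with the epithelium covariate (1149 at an unadjusted p under 0.05), 0 with the smooth muscle covariate (271) and 0 with both (297), all by limma. Neither covariate overlaps between the groups. Leaving out 1 array gave 944 (without high 3) to 2650 (without high 1), and 1002 without high 2. Of the member probe sets, 0 were called with any of these 3 covariate fits (0 at an unadjusted p under 0.05) and 0 to 2 when 1 array was left out. TAPBP kept its call in 21 of 25 alternatives (limma adjusted p between 0.0067 and 1.00). The called correlations numbered 6 to 21 of 36 when 1 array was left out, 26 with the mean of all probe sets of a gene and 14 after adjusting for the epithelium list mean, chosen after seeing the data. The 4 pair differences gave 0 calls under each of 16 alternatives; TAP1 minus SLA-DRA ran from -0.036 (without high 3) to 0.46 when 1 array was left out. Of 225 differences of single genes under alternatives, 19 turned sign and 0 of those were called. Under array weights SLA-DMB was -0.19, SLA-DRB1 -0.30, SLA-DRA -0.052 and CD74 -0.21. With the epithelium covariate SLA-DMB was -0.13 and SLA-DRB1 -0.22. SLA-DQA1 was 0.12 with the smooth muscle covariate and 0.12 with both, SLA-DRB1 was -0.0058 with the macrophage and dendritic cell covariate, and SLA-DMB was -0.020 without high 5 and low 3. When 1 array was left out, the range was -0.29 to 0.073 for SLA-DQA1, -0.29 to 0.077 for SLA-DQB1, -0.017 to 0.19 for SLA-DMA, -0.013 to 0.45 for CD74, -0.11 to 0.37 for SLA-DMB and -0.029 to 0.42 for SLA-DRB1. The cause of these changes was not tested. The replicate block, which groups arrays by replicate number, gave 1971 calls and 1 member call. The 95% intervals of the class II differences reach from -0.89 to 1.12, and levels near background could not be told, since no detection calls were used.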

Other observations

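The 7 probe sets that list a member together with another gene belong in no comparison above. The brightest of them, listing SLA-1 and SLA-2 with LOC100513601, had means of 11.03 ± 0.34 in the 5 high prolificacy sows and 10.31 ± 0.67 (SD) in the 9 low prolificacy sows, and differed by 0.72 (limma adjusted p = 0.17). A probe set listing SLA-1 with 1 other gene ran from 3.83 to 7.10 in high and from 3.73 to 10.09 in low prolificacy, with its highest value in low 5. Of the 3 probe sets that list SLA-DRB1 with LOC106504372, the brightest had means of 7.47 ± 1.08 in the 5 high prolificacy sows and 7.01 ± 0.74 (SD) in the 9 low prolificacy sows, and 0 of the 3 were called by limma, with 0 at an unadjusted p under 0.05.

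The 9 probe sets annotated as B2M did not vary alike. A bright one ran from 10.26 to 13.14 in high prolificacy and from 9.70 to 13.49 in low prolificacy. Another lay between 11.96 and 12.27 in high prolificacy and between 11.90 and 12.23 in low prolificacy.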
